A study of Mus musculus with 25 samples.

Results

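Bdnf, its receptor gene Ntrk2, the activin subunit genes Inhba and Inhbb, the activin receptor gene Acvr1c, the neuronal pentraxin genes Nptx1, Nptx2 and Nptxr, and Bmp3 were followed across mouse hippocampal RNA-seq libraries. These 9 genes, taken by symbol, are among 24421 in the count files, and all 9 had enough reads to be tested. The study profiled hippocampi of mice heterozygous for Scn1a, the sodium channel gene mutated in Dravet syndrome, at the ages and on the strains given next. The 25 libraries fall into 9 groups: wild-type and Scn1a+/- mice of 129S6/SvEvTac (here 129S6) and of [129S6/SvEvTac x C57BL/6]F1 (here F1), each at postnatal day 14 (P14) and 24 (P24), and P24 F1 Scn1a+/- mice labelled with seizures. All Scn1a+/- mice of the other groups are labelled as free of seizures, and the labels name no agent. P24 F1 Scn1a+/- without seizures and P14 129S6 wild type have 2 libraries each, and the other 7 groups have 3.

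A library is a pool of hippocampi, from 3 to 4 mice in the seizure group and 12 to 16 in every other group, so seizures and small pools cannot be told apart. The time between a seizure and dissection is not given in the sources used here. Nothing in the labels separates the pools of a group by litter or day, and the p-values therefore cover the spread of pools only, which may be technical. Scn1a itself was lower in Scn1a+/- than in wild type in 3 of the 4 genotype comparisons without seizures, in level (P14 129S6, P14 F1 and P24 F1). None of these differences passed the edgeR test described below (adjusted p = 0.833 in P24 F1 and 0.994 in P14 F1). In the P24 129S6 libraries Scn1a ran against the labels, with a level of 140 ± 4.95 CPM (counts per 1000000 reads, SD, n = 3) under the Scn1a+/- label and 110 ± 0.740 under the wild-type label. Their file names give the opposite genotype, and the 6 columns for them in the authors' normalized table hold values of the other genotype's count files. Groups follow the labels here, and for these libraries the genotype is given as the label states it. The Scn1a level and the normalized columns both go with the file names, so genotype signs given by label in P24 129S6 may be reversed. Total counts ran from 7436442 to 25520050 per library.

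BDNF is a secreted neurotrophin that acts through the receptor tyrosine kinase TrkB, the product of Ntrk2, and its gene is a standard late-response gene of excited neurons. Activin A is a dimer of the Inhba product and activin B of the Inhbb product. Both signal through a type II and a type I receptor to Smad proteins. Acvr1c encodes ALK7, a type I receptor, and which ligand acts on it was not tested here. Bmp3 is an unusual member of the bone morphogenetic protein family that can hold back the others. The neuronal pentraxins gather AMPA-type glutamate receptors at synapses: Nptx1 and Nptx2 (also called Narp) are secreted, and Nptxr is anchored in the membrane. In the hippocampus Bdnf, Inhba and Nptx2 are known for strong induction by synaptic activity and by seizures.

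Genes of this kind are read from promoters that respond to calcium and cAMP, and the deposited data count whole genes, so the sequences below are context for the members and not measured features. RefSeq's table (GRCm38.p6, the mm10 assembly) gives windows of the 250 bases before a transcript start for 5 of the 9 members. They are 12 windows: 7 of Bdnf, 2 of Acvr1c and 1 each of Ntrk2, Inhba and Inhbb. A set of 6 motifs was searched on both strands, and 3 of the 12 windows held one, each shown here 5′ to 3′ on the + strand with the match in capitals. The first 2 are Bdnf windows and the other is the first 180 bases of the Inhba window.
Bdnf, chr2:109676782-109677031: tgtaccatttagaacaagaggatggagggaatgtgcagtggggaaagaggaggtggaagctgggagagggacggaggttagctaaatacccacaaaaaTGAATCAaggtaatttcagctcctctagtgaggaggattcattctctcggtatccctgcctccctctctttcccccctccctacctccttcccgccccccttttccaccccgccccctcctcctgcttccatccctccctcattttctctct
Bdnf, chr2:109692186-109692435: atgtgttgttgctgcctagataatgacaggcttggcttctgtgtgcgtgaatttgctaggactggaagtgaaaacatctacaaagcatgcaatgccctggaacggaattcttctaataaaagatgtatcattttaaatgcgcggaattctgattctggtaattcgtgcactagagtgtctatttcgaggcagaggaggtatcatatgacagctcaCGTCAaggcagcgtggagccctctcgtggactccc
Inhba, chr13:16011601-16011780: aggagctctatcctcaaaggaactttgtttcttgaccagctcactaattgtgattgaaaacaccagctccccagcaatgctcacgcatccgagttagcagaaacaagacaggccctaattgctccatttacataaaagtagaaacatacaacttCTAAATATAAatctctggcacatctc

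In the Bdnf window at chr2:109676782-109677031 the capitals mark TGAATCA, 152 bases before the start. It matches the AP-1 motif as searched, TGANTCA, in which N allowed any base at the centre. The window at chr2:109692186-109692435 lies before the exon usually numbered IV, whose promoter is the best-studied activity-regulated one of Bdnf. Its capitals mark the short core of a cAMP response element, CGTCA, 35 bases before the start. In the Inhba window the capitals mark a MEF2 element 96 bases before the start. Of all 32851 windows in the table, 6.75% held the AP-1 motif, 17.8% the short core and 2.92% the MEF2 element. The full cAMP response element TGACGTCA (1.55% of windows), the E-box CACGTG (6.02%) and the CArG box (1.47%) had no match in the 12 windows. A match is a string of letters and not a measured binding site, and the gene counts do not separate the promoters of Bdnf.

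In P24 F1 hippocampus with seizures, 6 of the 9 genes rose against wild type and none fell: Inhba, Bmp3, Nptx2, Acvr1c, Bdnf and Nptxr. Ntrk2, Inhbb and Nptx1 did not pass the test. For 5 of the 9 all seizure libraries were above all wild-type ones, as for 15.7% of all genes. The test was edgeR's quasi-likelihood F test on 15912 genes, and a gene was called where its p, adjusted by Benjamini and Hochberg's method over all of them, was under 0.05. Of all genes tested, 22.5% were called in either direction, 12.4% higher and 10.1% lower. The median log2 fold change was 1.80 over the 9 genes and 0.01 over all genes. The 9 genes were chosen with earlier results of these data known. Shares of them set beside those of all genes, here and below, are therefore descriptions and not tests.

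**Figure D1:**
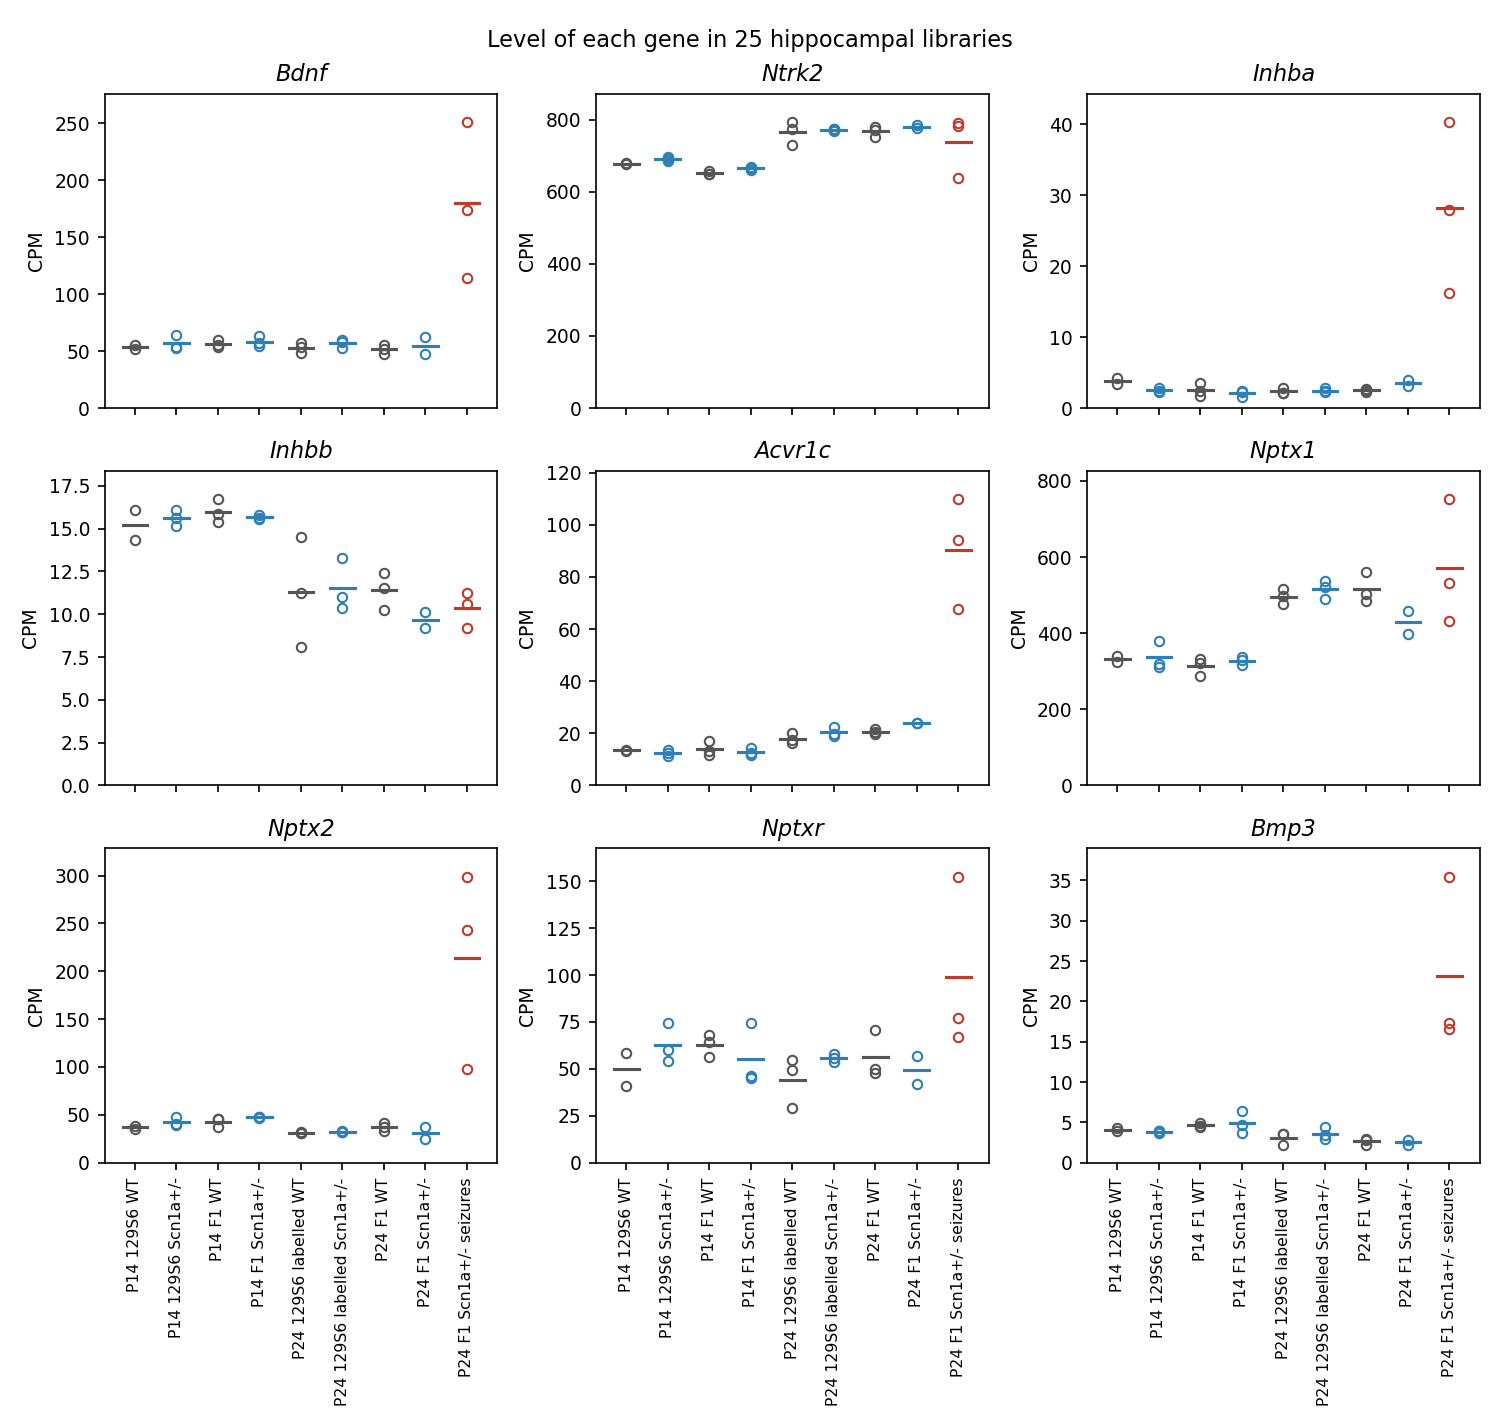
Level of each of the 9 genes in CPM (linear axes from 0) in the 25 libraries, by group. Each point is a library and each bar the group mean. The 3 seizure points of Bdnf, Inhba, Acvr1c, Nptx2 and Bmp3 lie above all 22 other libraries.

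Bdnf stood at 114, 251 and 174 CPM in seizure replicates 1, 2 and 3, and at 55.4, 47.6 and 51.7 CPM in the wild-type libraries. The groups did not overlap, and the lowest seizure library was 1.78 times the highest of the 22 libraries outside the seizure group (64.3 CPM). The rise was 3.48-fold, a log2 fold change of 1.80 ± 0.15 (SE, adjusted p = 5.28e-11). Such SE and p values use a spread estimated over all 9 groups. The seizure libraries varied more, with a coefficient of variation for Bdnf of 38.1% against 7.52% in wild type. With only the compared groups fitted by edgeR, the change in Bdnf was 1.80 ± 0.23 (adjusted p = 0.000904). Its receptor gene Ntrk2 was at 638, 792 and 783 CPM in the seizure libraries and at 773, 778 and 752 in wild type. Seizure replicate 1 was the lowest of all 25 libraries for Ntrk2, and the other 2 lay just above the wild-type libraries. The log2 difference in Ntrk2 was -0.06 ± 0.06 (adjusted p = 0.565).

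Of the 2 activin ligand genes, Inhba rose and Inhbb did not pass the test. Inhba was at 16.2, 40.3 and 27.9 CPM in the seizure libraries against 2.49, 2.27 and 2.75 in wild type. Every seizure library was above every other library of the study, the lowest by 3.82 times, and the rise of 11.2-fold (log2 3.48 ± 0.23, adjusted p = 6.28e-13) was the largest of the 9. Inhbb read 10.6, 9.20 and 11.3 CPM with seizures and 12.4, 11.5 and 10.3 in wild type, with overlapping groups and a log2 difference of -0.14 ± 0.13 (adjusted p = 0.493). Acvr1c, a type I receptor gene, was at 67.7, 110 and 94.1 CPM against 21.5, 20.4 and 19.7. Its groups were far apart, and it rose 4.41-fold (log2 2.14 ± 0.12, adjusted p = 1.95e-14), the smallest adjusted p of the 9. Bmp3 was at 17.3, 16.6 and 35.5 CPM against 2.89, 2.23 and 2.80, a rise of 8.75-fold (log2 3.13 ± 0.23, adjusted p = 4.97e-12) with no overlap.

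The pentraxin genes differed from each other. Nptx2 was at 98.0, 243 and 299 CPM in the seizure libraries and at 41.9, 37.5 and 33.4 in wild type, a rise of 5.67-fold (log2 2.50 ± 0.20, adjusted p = 4.22e-11) with no overlap. Nptxr was at 67.0, 77.1 and 152 CPM against 70.8, 47.8 and 49.8, so seizure replicate 1 lay below a wild-type library. It rose 1.76-fold (log2 0.82 ± 0.21, adjusted p = 0.00529), and that call rested on replicate 3: without it the log2 difference was 0.35 (adjusted p = 0.119). It was also lost when only these groups were fitted (adjusted p = 0.0886). Nptx1 was at 431, 533 and 751 CPM against 562, 484 and 502, with seizure replicate 1 below and replicate 3 above all wild-type libraries. The log2 difference was 0.15 ± 0.11 (adjusted p = 0.375), and over the 10 alternatives it ran from -0.11 to 0.31, called in 1 of them, without seizure replicate 1.

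Against the seizure-free P24 F1 Scn1a+/- group, which shares the genotype, 7 of the 9 genes rose and none fell. Here 15.7% of all genes tested were called, 8.72% higher and 7% lower, and for 6 of the 9 all seizure libraries were above both others, as for 16% of all genes. This comparison uses the same 3 seizure libraries as the one above, so the values are given side by side and are not independent. Scn1a itself was lower with seizures, at a mean of 79.9 CPM against 104 in the seizure-free group (log2 -0.38 ± 0.08, adjusted p = 0.00164). Against wild type Scn1a was lower too (log2 -0.67 ± 0.07, adjusted p = 2.67e-08). The 2 seizure-free libraries read 62.1 and 47.7 CPM for Bdnf, 3.98 and 3.11 for Inhba, 23.9 and 23.8 for Acvr1c, 36.8 and 25.1 for Nptx2 and 2.86 and 2.17 for Bmp3. All of these lay below every seizure library. The log2 fold changes were 1.72 ± 0.17 for Bdnf (adjusted p = 9.83e-09) and 3.01 ± 0.28 for Inhba (adjusted p = 1.87e-09). For Acvr1c the value was 1.92 ± 0.15 (adjusted p = 2.70e-11), for Nptx2 2.80 ± 0.25 (adjusted p = 8.56e-10) and for Bmp3 3.23 ± 0.29 (adjusted p = 1.12e-09).

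Nptxr and Nptx1 rose by less. Nptxr was at 57.0 and 41.9 CPM in the seizure-free libraries, below all 3 with seizures, and its log2 fold change was 1.01 ± 0.25 (adjusted p = 0.00489). Without seizure-free replicate 2 that became 0.79 (adjusted p = 0.145), and without seizure replicate 3 it was 0.54 (adjusted p = 0.0440). Nptx1 was at 459 and 397 CPM, overlapping with the seizure libraries, with a log2 fold change of 0.42 ± 0.13 (adjusted p = 0.0205). The Nptx1 call was lost without seizure replicate 3 (0.16, adjusted p = 0.235), without seizure-free replicate 2 (0.31, adjusted p = 0.260), under DESeq2 (adjusted p = 0.0556) and when only these groups were fitted (adjusted p = 0.348), which left it in 5 of 9 alternatives. Ntrk2 at -0.08 ± 0.07 (adjusted p = 0.493) and Inhbb at 0.09 ± 0.16 (adjusted p = 0.772) did not pass.

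**Figure D2:**
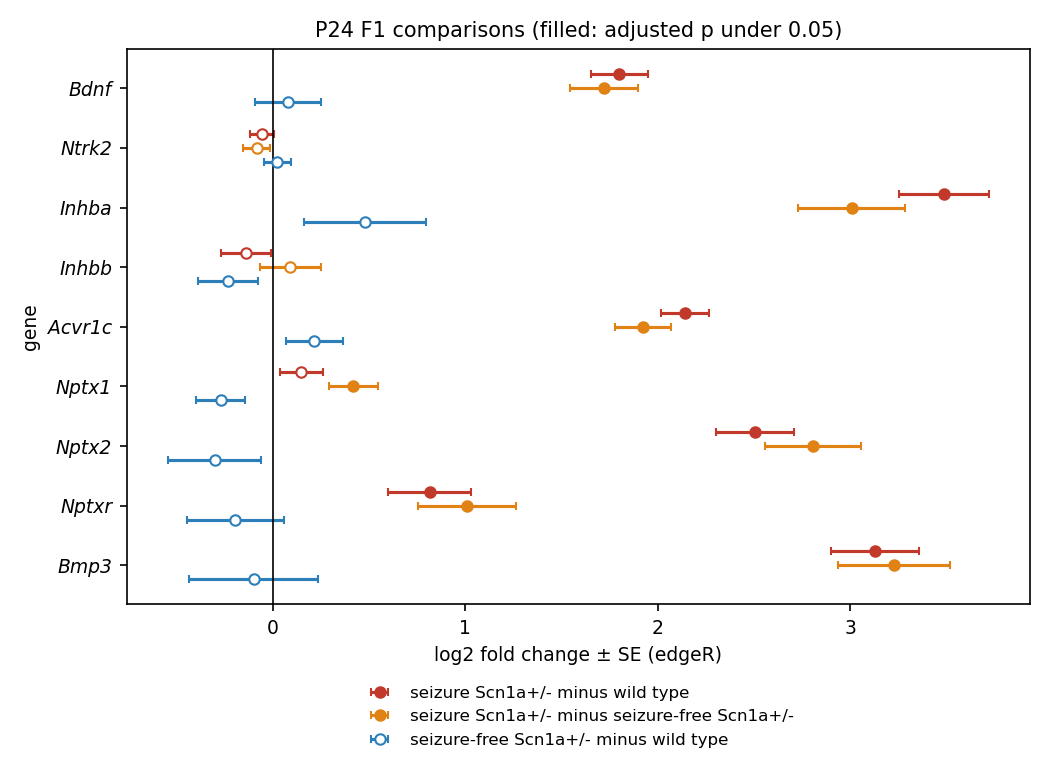
Log2 fold change ± SE of each gene in the 3 comparisons within P24 F1 (edgeR), with filled points where the adjusted p was under 0.05. Bdnf, Inhba, Acvr1c, Nptx2, Nptxr and Bmp3 are filled in both comparisons with the seizure group, Nptx1 in 1 of them, and no gene is filled between seizure-free Scn1a+/- and wild type.

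The size of the response differed among the 3 seizure libraries, and their order differed between genes. Replicate 2 was the highest for Bdnf, Inhba and Acvr1c, at 4.87, 16.1 and 5.35 times the wild-type mean. Replicate 3 was the highest for Nptx2, Nptxr, Nptx1 and Bmp3, at 7.95, 2.71, 1.46 and 13.4 times. Replicate 1 was the lowest for all of these but Bmp3, where replicate 2 lay slightly below it. Between the highest and lowest seizure library the ratio was 3.05 for Nptx2, 2.49 for Inhba, 2.27 for Nptxr, 2.19 for Bdnf, 2.14 for Bmp3, 1.74 for Nptx1 and 1.62 for Acvr1c. Ntrk2 and Inhbb varied less, by 1.24 and 1.22 times. Of all genes tested, 24.8% varied by over 1.5 times between these libraries.

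**Figure D3:**
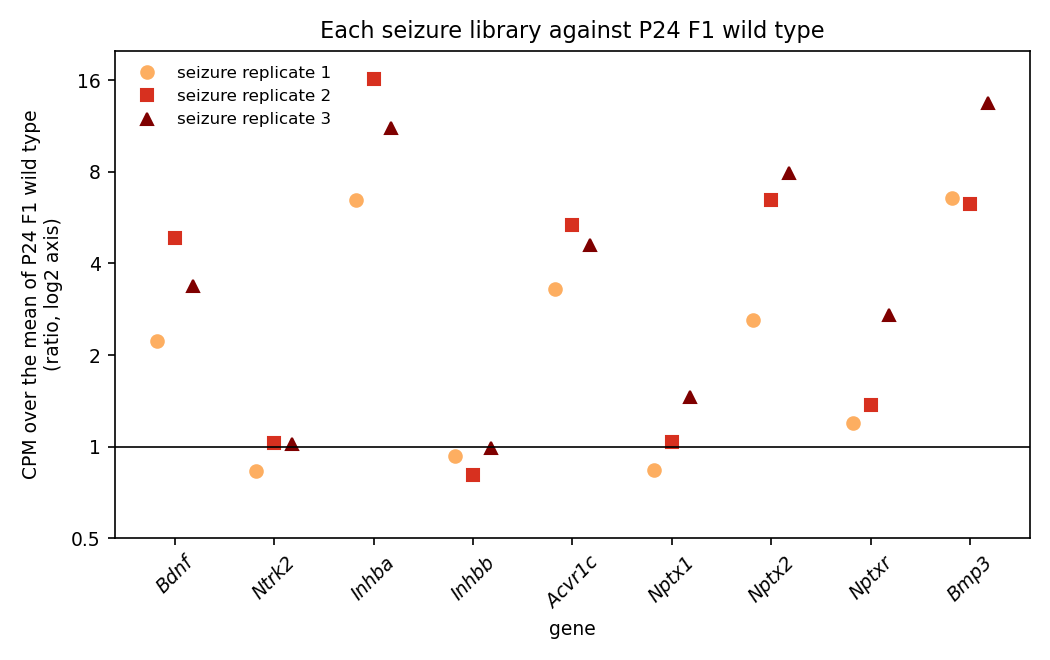
CPM of each seizure library divided by the mean of the 3 P24 F1 wild-type libraries, on a log2 axis where 1 is the wild-type level. Circles, squares and triangles are replicates 1, 2 and 3: squares lead for Bdnf, Inhba and Acvr1c, triangles for Nptx2, Nptxr, Nptx1 and Bmp3, and Ntrk2 and Inhbb stay near 1.

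All 3 seizure libraries lay above all 22 others for 5 of the 9 genes (55.6%), namely Bdnf, Inhba, Acvr1c, Nptx2 and Bmp3, against 4.08% of all genes tested. That contrast is a description, since the 9 were chosen with earlier results known. The 5 named genes were called in each of the 10 alternative analyses against wild type and each of the 9 against the seizure-free group. With only the compared groups fitted by edgeR, the adjusted p values against wild type were larger than in the main fit. They were 0.000904 for Bdnf, 0.000125 for Inhba, 4.52e-05 for Acvr1c, 0.00103 for Nptx2 and 0.000203 for Bmp3. Reads per gene were lowest for Inhba, with 17 in 2 of the P14 F1 Scn1a+/- libraries, and for Bmp3, with 27 in 1 of them. Outside the seizure group Bdnf ran from 47.6 to 64.3 CPM (median 55.0) over the 22 libraries, Inhba from 1.57 to 4.24, Bmp3 from 2.14 to 6.46, Nptx2 from 25.1 to 48.2 and Acvr1c from 11.5 to 23.9.

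To compare genes with each other, CPM was divided by exonic length (GENCODE vM39, by symbol), which gives CPM per kb. In P24 F1 wild type the order of level was Nptx1 (80.4), Ntrk2 (25.7), Nptx2 (13.2), Nptxr (10.9), Bdnf (6.80), Inhbb (2.65), Acvr1c (2.14), Bmp3 (0.357) and Inhba (0.352). Bmp3 and Inhba, at the bottom, did not differ beyond their spread, and neither did Nptx2 and Nptxr. Nptxr overlaps the annotated gene Npcd and its counting is uncertain, so its place in the order is uncertain too. In the seizure group Nptx1 was still first at 89.1 CPM per kb and Nptx2 followed at 75.2, whose libraries overlapped in CPM per kb. Ntrk2 was then at 24.6, Bdnf at 23.7, Nptxr at 19.1, Acvr1c at 9.45, Inhba at 3.96, Bmp3 at 3.12 and Inhbb at 2.41. Bdnf thus stood near its receptor gene in mean CPM per kb with seizures, with a wide spread over the libraries. The length is the union of all annotated exons of a gene, 29.9 kb for Ntrk2 and 7.59 kb for Bdnf. In mean CPM with seizures Ntrk2 was at 738 and Bdnf at 180, so their nearness depends on the length used. Inhba, below Inhbb in wild type, had a mean above it with seizures, with overlapping libraries.

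Without seizures, none of the 9 genes was called between Scn1a+/- and wild type in any of the 4 settings, P24 F1, P24 129S6 by label, P14 F1 and P14 129S6. The share of all genes called was 0% in each of the 4, with 889, 471, 724 and 391 genes at an unadjusted p under 0.05, and DESeq2 called 0 genes in each as well. Scn1a itself was among the genes not called (log2 -0.29 ± 0.08 in P24 F1), so differences of that size could be missed. In P24 F1 the log2 differences of the 9 genes ran from -0.30 ± 0.24 (Nptx2) to 0.48 ± 0.32 (Inhba). Nptx1 was the only one under an unadjusted p of 0.05: its seizure-free Scn1a+/- libraries, 459 and 397 CPM, both lay below the wild-type ones, a log2 difference of -0.27 ± 0.13 (adjusted p = 0.833). When the 3 seizure libraries, which widen the shared spread, were left out of the fit, the value was -0.27 with an adjusted p of 0.0384. The 0% above belongs to the fit of all 25 libraries, and the share of all genes called in the refit is not given here. In P24 129S6 the differences ran from 0.00 (Inhba) to 0.30 (Nptxr) by label, and with the genotype of the file names the same differences turn sign and reach -0.30 for Nptxr. They ran in P14 F1 from -0.24 (Inhba) to 0.15 (Nptx2), and in P14 129S6 from -0.63 ± 0.33 (Inhba) to 0.32 (Nptxr). The genotype difference at P24 F1 was tested against that at P14 F1, and 0 of the 9 genes were called, among 0% of all genes (804 genes at an unadjusted p under 0.05, and 0 by DESeq2).

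With age some of the genes rose and others fell. From P14 to P24 in F1, with genotypes averaged and the seizure group left out, Ntrk2, Acvr1c and Nptx1 rose and Inhbb, Nptx2 and Bmp3 fell, so 6 of the 9 changed where 38.4% of all genes did (19% higher, 19.4% lower). In 129S6, 4 changed where 34.3% of all genes did (17.3% higher, 17.1% lower): Ntrk2, Acvr1c and Nptx1 rose and Inhbb fell. Bdnf, Nptxr and Inhba did not pass in either strain.

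Nptx1 went from a range of 287 to 337 CPM in the 6 P14 F1 libraries to 397 to 562 in the 5 at P24, with no overlap and a log2 change of 0.55 ± 0.08 (adjusted p = 3.47e-06). In 129S6 it changed by 0.60 ± 0.09 (adjusted p = 1.29e-06). Acvr1c rose by 0.73 ± 0.11 in F1 (13.3 to 22.2 CPM, adjusted p = 1.93e-06) and by 0.56 ± 0.11 in 129S6 (12.9 to 19.2 CPM, adjusted p = 0.000125), without overlap in both. Ntrk2 rose by a small and even amount, 0.23 ± 0.05 in F1 (658 to 774 CPM, adjusted p = 0.000177) and 0.17 ± 0.05 in 129S6 (684 to 769 CPM, adjusted p = 0.00565). Its libraries at the 2 ages did not overlap in either strain.

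Inhbb fell by 0.59 ± 0.10 on the log2 scale in F1 (15.8 to 10.5 CPM, adjusted p = 3.13e-05) and by 0.42 ± 0.10 in 129S6 (15.4 to 11.4 CPM, adjusted p = 0.00142). Bmp3 fell by 0.93 ± 0.21 in F1 (4.79 to 2.58 CPM, adjusted p = 0.000857), and its value in 129S6 was -0.29 ± 0.21 (adjusted p = 0.306). Nptx2 fell by 0.42 ± 0.16 in F1 (45.2 to 34.3 CPM, adjusted p = 0.0431), with overlapping libraries. That call was lost under DESeq2 (adjusted p = 0.0973) and in 8 of 11 omissions of a single library, such as without seizure-free Scn1a+/- replicate 2 at P24 (-0.28, adjusted p = 0.283). In 129S6 Nptx2 was at -0.31 ± 0.16 (adjusted p = 0.140) with all P24 libraries below all P14 ones, and it was called when the seizure libraries were left out of the fit (-0.32, adjusted p = 0.000252).

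**Figure D4:**
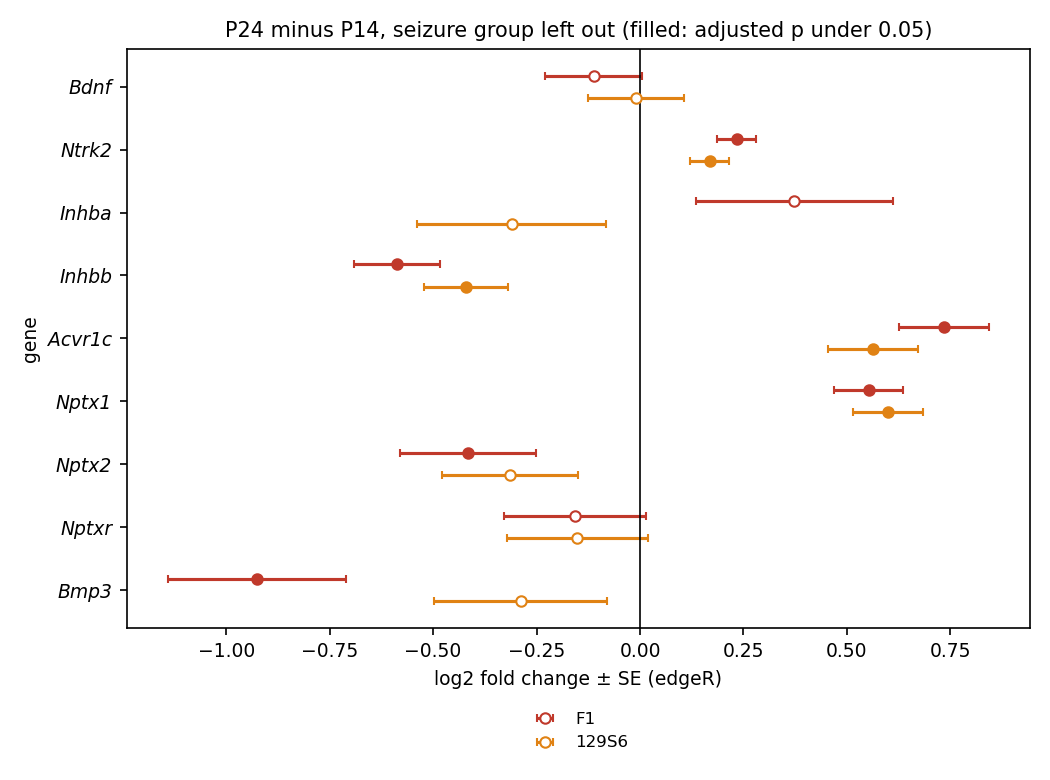
Log2 fold change ± SE from P14 to P24 in each strain (edgeR, genotypes averaged, seizure group left out), with filled points where the adjusted p was under 0.05. Ntrk2, Acvr1c and Nptx1 are filled to the right of 0 and Inhbb to the left in both strains, and Nptx2 and Bmp3 are filled in F1.

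The difference between the age changes of the strains was tested directly, and 0 of the 9 genes were called, against 0.00628% of all genes (1 gene, 1295 at an unadjusted p under 0.05, and 2 genes by DESeq2). The largest differences, F1 minus 129S6, were 0.68 ± 0.33 for Inhba and -0.64 ± 0.30 for Bmp3 (both adjusted p = 0.612). Between the strains themselves 0 of the 9 genes were called at P14, where 3.7% of all genes were, and 0 at P24, where 6.33% were. No member had an unadjusted p under 0.05 at P14 and 1 did at P24. It was Acvr1c, at 22.2 CPM in F1 and 19.2 in 129S6, a log2 difference of 0.21 ± 0.10 (adjusted p = 0.241, and 0.0399 when only these groups were fitted). DESeq2 called 660 genes at P14 and 1148 at P24, none of them a member.

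The partners of these genes were taken from lists of their pathways. These lists and the cell type lists were also chosen with earlier results of these data known, so their shares are descriptions. Of 21 tested neurotrophin pathway genes, 6 rose and 3 fell with seizures against wild type, 42.9% against the 22.5% of all genes, with a median log2 fold change of -0.00. Ntf3, the gene of the related neurotrophin NT-3, fell by 1.47 ± 0.21 (9.40 to 3.35 CPM, adjusted p = 3.66e-06). Plat, encoding the protease tPA that starts a cascade able to cleave proBDNF, rose by 0.58 ± 0.10 (adjusted p = 2.65e-05), and Pcsk1, a prohormone convertase, by 0.64 ± 0.16 (adjusted p = 0.00410). Sort1, the gene of the proBDNF sorting receptor sortilin, fell by 0.47 ± 0.10 (adjusted p = 0.000583). Arhgef7, a Rac exchange factor, rose by 0.35 ± 0.07 (adjusted p = 0.000145). The receptor genes Ntrk3 (0.04 ± 0.06, adjusted p = 0.732) and Ngfr (-0.63 ± 0.34, adjusted p = 0.192) did not pass.

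In the activin, inhibin and TGF-beta list, 7 of 31 tested genes rose and 5 fell (38.7%, against 22.5% of all genes, median 0.08). Pmepa1 and Skil, both known targets and brakes of Smad signalling, rose by 1.53 ± 0.12 (37.6 to 109 CPM, adjusted p = 8.87e-12) and 0.86 ± 0.08 (adjusted p = 3.53e-10). The type I receptor gene Acvr1 rose by 1.02 ± 0.10 (34.0 to 69.2 CPM, adjusted p = 1.83e-09). The type II receptor genes went the other way: Acvr2a fell by 0.67 ± 0.07 (94.8 to 59.5 CPM, adjusted p = 1.17e-08) and Acvr2b by 0.65 ± 0.18 (adjusted p = 0.00764). Inha, whose product pairs with an activin subunit to make inhibin, fell by 0.78 ± 0.09 (26.8 to 15.6 CPM, adjusted p = 1.01e-07). The activin receptor gene Acvr1b (-0.13, adjusted p = 0.188) and the genes of the activin-binding proteins Fst (-0.11, adjusted p = 0.799) and Fstl3 (0.82 ± 0.54, adjusted p = 0.297) did not pass.

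In the BMP list, 6 of 29 tested genes rose and 3 fell (31%, against 22.5% of all genes, median 0.20). Id1, Id2 and Id3, helix-loop-helix inhibitors known as BMP targets, rose by 0.70 ± 0.11, 0.60 ± 0.10 and 0.78 ± 0.09 (adjusted p = 1.93e-05, 2.07e-05 and 4.15e-08). Nog, the gene of the BMP antagonist noggin, fell by 0.56 ± 0.16 (adjusted p = 0.00891), and the antagonist gene Nbl1 rose by 0.32 ± 0.08 (adjusted p = 0.00328). Of the BMP receptor genes Bmpr1a rose by 0.20 ± 0.07 (adjusted p = 0.0425). Bmpr2, at 0.20 ± 0.07 (adjusted p = 0.0509), and Bmpr1b, at -0.02 ± 0.09 (adjusted p = 0.878), did not pass.

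Among pentraxin partners and relatives, 3 of 22 tested genes rose and 7 fell (45.5%, against 22.5% of all genes, median -0.08). All 4 AMPA receptor subunit genes fell: Gria1 by 0.28 ± 0.08 (adjusted p = 0.0158), Gria2 by 0.34 ± 0.06 (adjusted p = 9.69e-05), Gria3 by 0.36 ± 0.07 (adjusted p = 0.000450) and Gria4 by 0.26 ± 0.08 (adjusted p = 0.0109). Ptx3, a pentraxin of innate immunity, rose by 3.62 ± 0.31 (1.40 to 17.5 CPM, adjusted p = 1.41e-10), and Ptx4, at 0.851 CPM in wild type and 0.210 with seizures, fell by 1.99 ± 0.54 (adjusted p = 0.00675). C1ql2, a mossy fibre synapse organiser, rose by 0.63 ± 0.13 (adjusted p = 0.000394). In the list of other activity-induced late-response genes, 23 of 35 tested rose and none fell (65.7%, against 12.4% of all genes called higher and 10.1% lower, median 0.64). Its smallest adjusted p values were those of the neuropeptide genes Penk (log2 4.05 ± 0.14, 15.9 to 264 CPM, adjusted p = 1.63e-20) and Npy (1.88 ± 0.10, adjusted p = 4.23e-15). Timp1, a protease inhibitor, followed at 3.71 ± 0.21 (adjusted p = 9.47e-15), then the G-protein regulator Rgs4 at 1.62 ± 0.09 (adjusted p = 2.23e-14) and Trib2 at 1.15 ± 0.09 (adjusted p = 8.87e-12).

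Against the seizure-free group, where 15.7% of all genes were called, 5 of 21 neurotrophin genes rose and 1 fell (28.6%), and 5 of 31 activin and TGF-beta genes rose and 4 fell (29%). In the BMP list 4 of 29 rose and 1 fell (17.2%), near the share of all genes. Of the pentraxin partners 2 of 22 rose and 4 fell (27.3%), and 22 of 35 late-response genes rose and none fell (62.9%). Plat rose by 0.75 ± 0.11 and Ntf3 fell by 1.47 ± 0.24. Pmepa1 rose by 1.53 ± 0.14, Skil by 0.88 ± 0.09, Id3 by 0.59 ± 0.10, Id2 by 0.59 ± 0.11 and Ptx3 by 3.55 ± 0.39. Gria2 fell by 0.34 ± 0.07, while Gria1 (-0.13, adjusted p = 0.392) and Gria4 (-0.15, adjusted p = 0.273) did not pass here. Penk rose by 3.81 ± 0.16 and Npy by 1.93 ± 0.12.

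With age, 38.4% of all genes changed in F1 and 34.3% in 129S6. The shares were 42.9% and 33.3% of the 21 neurotrophin genes and 45.2% and 45.2% of the 31 activin and TGF-beta genes, near those of all genes. They were 55.2% and 55.2% of the 29 BMP genes, 54.5% and 59.1% of the 22 pentraxin partners, and 54.3% and 48.6% of the 35 late-response genes. The BMP antagonist gene Chrd rose by 0.95 ± 0.06 in F1 and 0.74 ± 0.06 in 129S6, and Smad3, a mediator of activin signalling, by 0.64 ± 0.08 and 0.69 ± 0.08. Fstl1 fell by 0.68 ± 0.07 and 0.55 ± 0.06, and Arhgef7 by 0.40 ± 0.05 and 0.35 ± 0.05. The synapse organiser gene C1ql1 fell by 0.79 ± 0.07 and 0.76 ± 0.07, while its relative C1ql3 rose by 0.43 ± 0.06 and 0.53 ± 0.06. Trib2 fell by 0.84 ± 0.07 and 0.85 ± 0.07, and the growth factor gene Igf1 by 0.94 ± 0.08 and 0.85 ± 0.08. In F1 Frs2 rose by 0.37 ± 0.06 and Id3 fell by 0.50 ± 0.07, and in 129S6 Shc3 fell by 0.52 ± 0.06 and Bmp4 by 0.84 ± 0.11. Between strains at P14 Bmp6 was lower in F1 (-0.56 ± 0.15) and the neuropeptide genes Cort (0.88 ± 0.17) and Sst (0.45 ± 0.09) higher. At P24 C1ql2 (0.67 ± 0.10), Bmp1 (0.31 ± 0.07) and Tdgf1 (1.91 ± 0.52) were higher in F1 and Tgfb2 (-0.34 ± 0.08), Slitrk5 (-0.20 ± 0.06) and Bmp6 (-0.58 ± 0.15) lower.

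Markers of some of the cell types that hippocampal tissue can hold moved with the seizure group. In bulk tissue fewer cells of a type and less RNA per cell cannot be told apart. Against wild type 22.5% of all genes were called, 12.4% higher and 10.1% lower. The share was 90% of the dentate granule list, 60% of CA1, 50% of CA2 and CA3, 50% of neocortex and 10% of interneuron markers. Every list has 10 markers and none was at 0 in the P24 F1 libraries. Summed over the list, dentate granule neuron markers were at 633, 568 and 663 CPM in seizure replicates 1, 2 and 3 against 733 to 789 in the 5 other P24 F1 libraries, with 3 of 10 markers higher and 6 lower than in wild type. Neocortex markers were at 273, 270 and 295 against 351 to 404 (0 higher, 5 lower) and CA1 pyramidal markers at 856, 772 and 1009 against 933 to 1181 (0 higher, 6 lower). CA2 and CA3 markers without Nptx1 were at 696, 632 and 679 against 576 to 634, and 3 of the 10, Nptx1 included, were higher and 2 lower. Interneuron markers were at 671, 621 and 922 against 614 to 773 (1 higher, 0 lower). Replicate 3, with the most Nptx1, Nptx2, Nptxr and Bmp3, had the highest sum of the 3 seizure libraries for the interneuron, dentate granule, CA1 and neocortex lists. The part of these shifts in the rise of the 9 genes was not tested.

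Oligodendrocyte markers were at 11552, 16739 and 10700 CPM against 14653 to 16915 (0 higher, 7 lower) and astrocyte markers at 9253, 10042 and 8838 against 7765 to 9014 (3 higher, 5 lower). Microglia markers were at 579, 591 and 479 against 475 to 561 (3 higher, 0 lower), and endothelial and pericyte markers at 177, 232 and 217 against 193 to 199 (2 higher, 0 lower). Choroid plexus markers were at 458, 942 and 448 against 441 to 743 (0 higher, 0 lower). Leptomeninges and fibroblast markers were at 127, 152 and 133 against 138 to 171 (2 higher, 4 lower). Thalamus and habenula markers were at 217, 222 and 207 against 215 to 250 (1 higher and 4 lower of 9 tested). The called share was 80% for astrocyte, 70% for oligodendrocyte, 60% for leptomeninges and fibroblast and 55.6% for thalamus and habenula markers, against 22.5% of all genes. It was near or below that for microglia (30%), endothelial and pericyte (20%) and choroid plexus (0%) markers. Of the 3 seizure libraries, replicate 2, highest for Bdnf, Inhba and Acvr1c, had the highest sum for all 7 lists of this paragraph. It had the lowest for all 5 lists of the paragraph above. The neighbouring-region lists thus went opposite ways, with small margins to replicate 1. Thalamus and habenula read 222 against 217 and 207, and neocortex 270 against 273 and 295. The part of these differences in the rise of the 9 genes was not tested.

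The genes whose log2 level followed each member most closely over all 25 libraries were, for Bdnf, Rgs2, Skil and Cd44 (Pearson r 0.966, 0.957 and 0.954), for Inhba Sprr1a, Olfm4 and Stk40 (0.959 to 0.950), for Acvr1c Efhd2, Penk and Bhlhe41 (0.970 to 0.960), for Nptx2 Ier5, Fosl2 and Pmepa1 (0.974 to 0.960) and for Bmp3 Rgs4, Klf10 and Ptpn5 (0.952 to 0.932). These rest on the 3 seizure libraries, which stand apart from the rest. Between members, Bdnf and Nptx2 had an r of 0.951 over the 25 libraries and 0.488 over the 22 outside the seizure group, and Bdnf and Inhba 0.931 and -0.223. Over those 22, which hold both ages, Nptx1 was followed most closely by Ptk2b, Cyfip2 and Abr (0.990 to 0.989) and Ntrk2 by Zfp106, Adcy1 and Opalin (0.975 to 0.969). Inhbb was followed by Vat1, Ephb2 and Irgq (0.911 to 0.902), Acvr1c by Hapln2, Cyp2j12 and Padi2 (0.923 to 0.917), Nptx2 by Rad23b, Dctn2 and Lingo1 (0.947 to 0.923) and Bmp3 by Tsn, Map9 and Cct6a (0.885 to 0.865). Bdnf (1810013L24Rik, Slc25a46 and Nampt, 0.759 to 0.751), Inhba (Toe1, Zfp36 and Ppp1r42, 0.717 to 0.654) and Nptxr (Rtn4rl2, Thop1 and Fam171a2, 0.831 to 0.829) had no gene as close outside the seizure group. Over all 25, Nptx1 was followed by Abr, Wipf3 and Nos1 (0.977 to 0.965), Nptxr by Irf2bpl, Jund and Rtn4rl2 (0.910 to 0.890), Ntrk2 by Rictor, 9430020K01Rik and Sptb (0.925 to 0.911) and Inhbb by Ephb2, March9 and Irgq (0.898 to 0.893). They are descriptions over libraries that share groups.

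Position and overlap bear on 3 of the genes. RefSeq (GRCm38.p6) places Bdnf at chr2:109674700-109727043, Ntrk2 at chr13:58806472-59133970, Inhba at chr13:16004256-16031609, Inhbb at chr1:119415463-119422248 and Acvr1c at chr2:58267453-58357896. Nptx1 lies at chr11:119538719-119547820, Nptx2 at chr5:144545887-144557478, Nptxr at chr15:79786351-79804709 and Bmp3 at chr5:98854415-98884053. Nptxr overlaps the annotated gene Npcd, which had 0 reads in all 25 libraries, so the counting of Nptxr is uncertain. It also varied within groups, with P24 129S6 labelled wild type at 49.2, 54.5 and 29.1 CPM. Inhba has the antisense gene 4933412O06Rik, at 3.17 CPM with seizures and 5.99 in wild type, and Acvr1c has Gm13544, at 0.122 and 0.0293 CPM. The library kit does not mark strand, so reads from bases that a gene shares with its antisense partner cannot be told apart.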

How the data were processed

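Hippocampal RNA from pools of mice (TRIzol, TruSeq RNA Library Preparation Kit v2, which does not mark strand) was sequenced in 25 libraries. The authors deposited raw read counts per gene for each library (24421 symbols, 0 rows naming no gene). TopHat2 2.1.0, HTSeq 0.6.1p1, CASAVA and mm10 are listed in the submitters' processing notes. For the annotation and the strand setting, the sources used here give nothing. The authors also deposited a normalized signal table, each column a library's counts times 1 factor, used here only as a check of the labels: 19 columns held the values of a library of their group, and 6, all P24 129S6, those of the other genotype.

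Counts were fitted here with edgeR 4.0.16 (limma 3.58.1, R 4.3.3): TMM, filterByExpr (minimum count 10), 1 quasi-likelihood model of 9 groups over all libraries, 16 residual degrees of freedom, a common biological coefficient of variation of 7.57% (5.44% without the seizure libraries), two-sided tests, Benjamini-Hochberg adjustment over 15912 genes. The SE is the absolute log2 fold change divided by the root of the F statistic. CPM uses the effective library size, and likeness uses log2(CPM + 0.5). In age and strain contrasts, Scn1a+/- and wild type were averaged and the seizure group was not used. Alternatives were DESeq2 1.42.0, RLE size factors, no filter, fewer groups and omission of single libraries. The scripts were tested on simulated data.

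All 9 genes were named. From each pathway list (neurotrophin; activin, inhibin and TGF-beta; BMP; pentraxin partners; other late-response genes) the text names up to 5 called genes with the smallest adjusted p for seizures against wild type, up to 2 in each other comparison, and 15 direct partners. The genes, pathway lists and cell type lists were chosen with earlier results of these data known. Promoter sequences are RefSeq's (GRCm38.p6), and lengths are GENCODE vM39's.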

Additional observations from a re-analysis of the deposited data

How the results depend on the processing

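Each of the 23 called values of the 9 genes kept its sign in every alternative, and 16 single settings lost the call. Of the 85 values that were not called, 31 changed sign in some alternative, and 4 passed in at least 1: Nptx1 for seizures against wild type (1 of 10) and for seizure-free Scn1a+/- against wild type in P24 F1 (1 of 10), Nptx2 with age in 129S6 (3 of 16) and Acvr1c between strains at P24 (1 of 16). These counts leave out the genotype of the file names, under which Scn1a in P24 129S6 went from 0.35 to -0.349. Of 169 counts of called genes, 167 stayed within 1.5 times, and these include every count of 0 that stayed 0. The other 2 went from 0 to 1: Nptx1 in P24 F1 Scn1a+/- against wild type without the seizure libraries (adjusted p = 0.0384), and Acvr1c between strains at P24 with only the compared groups fitted (adjusted p = 0.0399). The shares of all genes called in the alternatives are not given here. With single libraries left out, the count was 5 to 7 of 9 for seizures against wild type, and 5 to 7 against the seizure-free group. Where an omission leaves 1 library in a group, that library is assumed to vary like the other groups. No paired analysis was possible because title numbers run from the first library to the last, so groups share none. Groups of 2 or 3 pools and 17 to 27 reads at the lowest limit what can be seen in Inhba and Bmp3 outside the seizure group.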
